A study of Mus musculus with 3 samples.

Results

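Among 2060 neurons of the small intestinal myenteric plexus of 3 *Ednrb*-/- mice, 93 neurons had a UMI of *Nos1*, UMIs of at least 3 of 8 program genes (*Col25a1*, *Greb1l*, *Dpp10*, *Cadps2*, *Thsd7b*, *Rgs6*, *Vwa5b1* and *Lrrtm4*) and UMIs of fewer than 3 of 7 keep-out genes (*Aldh1a3*, *Npy*, *Gng8*, *Rprml*, *Tmod1*, *Dok5* and *Lmo2*). A UMI, or unique molecular identifier, stands for 1 captured RNA molecule. These 93 cells, called members here, were 8 of 134 *Nos1* cells in mouse 1, 53 of 572 in mouse 2 and 32 of 359 in mouse 3. Pooled over the mice they were 8.73% of the 1065 *Nos1* cells (95% exact binomial interval 7.11% to 10.6%) and 4.51% of all cells (3.66% to 5.50%). Such intervals cover counting error only. The share of *Nos1* cells was 8.05% ± 1.81 (SD, n = 3 mice). Because UMIs of these 16 genes chose the cells, their values are given as a description, without a test.

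Nitrergic enteric neurons carry neuronal nitric oxide synthase, the product of *Nos1*, which makes nitric oxide from arginine. Nitric oxide reaches the smooth muscle, activates soluble guanylyl cyclase and relaxes the gut wall, and many of these neurons release vasoactive intestinal peptide (*Vip*) or galanin (*Gal*) as well. They act as inhibitory motor neurons or descending interneurons. Several of the 8 program genes act at the neuronal membrane or synapse. *Dpp10* is an auxiliary subunit of A-type potassium channels, *Rgs6* speeds the shut-off of G protein signals, *Cadps2* primes dense-core vesicles for release, *Lrrtm4* is a synaptic adhesion protein and *Col25a1* is a membrane-bound collagen.

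Each mouse (*Wnt1-tdT*; *Ednrb*-/-, C57BL/6 per the labels, postnatal day 14) gave 1 library of tdTomato-positive cells. *Wnt1*-driven Cre switches on tdTomato in cells that descend from the neural crest, so glia carry the label too, and only cells kept by the authors as neurons were analysed here. *Ednrb* codes for endothelin receptor B, whose loss leaves the distal bowel without ganglia, as in Hirschsprung disease. All 3 mice carry the knockout, and there is no other condition, so cells were compared with cells of the same mouse. Values are UMIs per 10000 UMIs of the cell, averaged over cells, unless another scale is named. *Ednrb* itself averaged 1.24, 1.68 and 1.12 in the members of mice 1, 2 and 3. UMIs summed over a gene do not tell which exons were read, so these values check no genotype.

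Members were shallow in mouse 1 and deeper in the other two. Their median depth was 4468 UMIs in mouse 1, 8388 in mouse 2 and 10579 in mouse 3, against 3995, 10652 and 9792 in the other *Nos1* cells. All 93 members had at least 3 of 10 neuronal markers, as did 99.5% of the other *Nos1* cells and 89.3% of the cells with no *Nos1*. The summed levels were 84.9, 54.7 and 58.4 in the members of mice 1, 2 and 3 against 74.5, 62.6 and 60.5 in the other *Nos1* cells. At least 3 of 10 smooth muscle markers were found in 83.9% of members and 76.2% of the other *Nos1* cells, with summed levels of 13.3, 13.8 and 9.49 in the members of mice 1, 2 and 3 against 27.1, 17.2 and 15.3. At least 3 of 10 glial markers were found in 57.0% and 61.0%, with sums of 15.7, 12.4 and 8.30 against 12.8, 14.01 and 11.8. The part of this RNA in the results was not tested. Summed epithelial markers were at 0, 0 and 0.0683 in the members of mice 1, 2 and 3. No member shared its cell barcode with another library, and none was called a doublet.

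**Figure D1:**
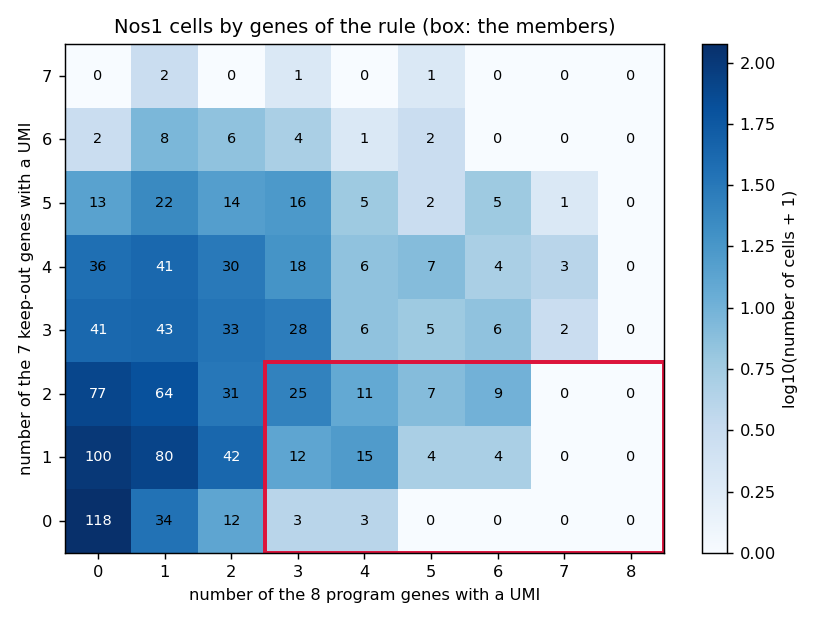
Number of *Nos1* cells by how many of the 8 program genes (horizontal axis) and how many of the 7 keep-out genes (vertical axis) had a UMI, with shading on a log10 scale. The red box holds the 93 members, and 123 cells with 3 or more genes of each list lie above it.

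The 2 lists did not split the cells cleanly, as the plot of cells by genes of the rule shows. Of the 216 *Nos1* cells with 3 or more program genes, 123 (56.9%) also had 3 or more keep-out genes and were left out by the rule, which is 29.7% of the 414 cells with 3 or more keep-out genes. These 123 cells had both programs, 291 had the *Npy* program only and 558 had neither. Most members sat near the edge of the rule. Exactly 3 program genes were found in 40 members, 4 in 29, 5 in 11 and 6 in 13, and no member had 7 or 8. Of the keep-out genes, 52 members had 2, 35 had 1 and 6 had none.

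The cells just inside and just outside the limits were as follows. The 40 members with exactly 3 program genes had a summed program level of 6.29 and a median of 7.5 *Nos1* UMIs, and the 85 cells with 2 program genes, just outside, had 4.79 and 4 UMIs. At the other limit, the 52 members with 2 keep-out genes had a summed keep-out level of 5.13, and the 47 cells with 3 keep-out genes had 8.94. Their summed program levels were 9.27 and 7.69.

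The program genes were low and patchy even in the members. *Cadps2* was found in the most members, 66 of 93 (71.0%), at 2.51, 2.15 and 1.23 in mice 1, 2 and 3, against 0.61, 0.41 and 0.37 in the other *Nos1* cells. *Thsd7b*, which codes for a membrane protein with thrombospondin repeats, was found in 61.3% of members, at 0.93, 2.21 and 1.95 against 0.55, 0.60 and 0.41. *Lrrtm4* was found in 59.1%, at 3.34, 1.14 and 1.24 against 0.59, 0.30 and 0.27. For each of these 3 genes every mouse had the higher level in the members, as the rule would give.

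*Col25a1* (chromosome 3, 130131501 to 130599877, GRCm38) was found in 54 of 93 members (58.1%), at 0.88, 1.69 and 1.76 in mice 1, 2 and 3, against 0.25, 0.16 and 0.20 in the other *Nos1* cells. *Dpp10* (chromosome 1, 123321471 to 124045559) was found in only 28 members (30.1%), at 0.37, 0.38 and 0.91 against 0.041, 0.14 and 0.10. It was present in 53.1% of the members of mouse 3 and in 18.9% of those of mouse 2. *Greb1l* was found in 46.2% of members, *Vwa5b1* in 43.0% and *Rgs6* in 28.0%. The 93 cells thus share a count of genes more than any single gene.

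Cells with no *Nos1* UMI need not lack *Nos1* or the program. In them, at a median depth of 7146 UMIs against 8388 in the members, the share with a UMI ran from 2.01% for *Greb1l* to 11.5% for *Lrrtm4* over the 8 genes. Among the keep-out genes, *Rprml* was found in 60.2% of members and *Tmod1*, a capper of actin filaments, in 47.3%, so these 2 genes gave most of the 1 or 2 keep-out genes that a member could have. *Npy*, the precursor of neuropeptide Y, was found in 4.30% of members and in 51.5% of the *Npy*-program cells.

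**Figure D2:**
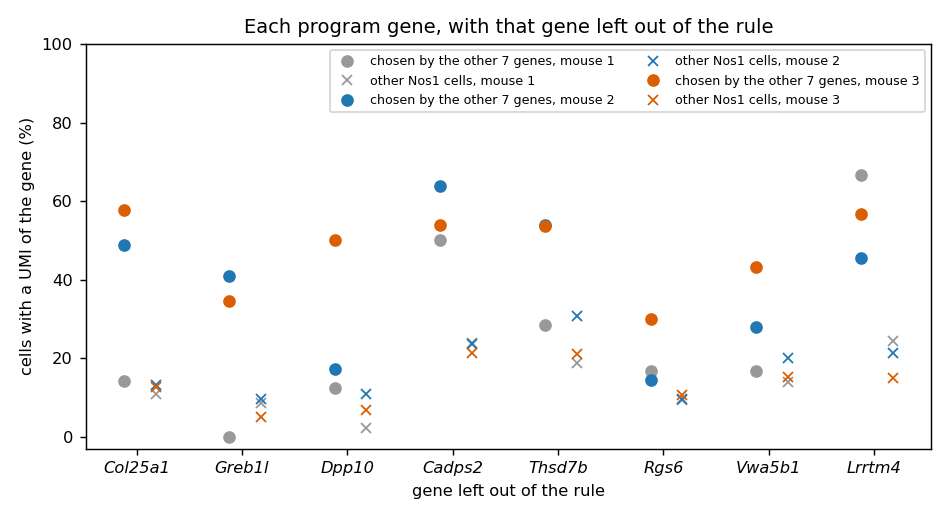
Share of cells with a UMI of each program gene (vertical axis, percent) when that gene is left out of the rule, in cells chosen by at least 3 of the other 7 genes (circles) and in the other *Nos1* cells (crosses), by mouse. In mice 2 and 3 each circle lies above its cross, while mouse 1 has at most 8 chosen cells for any gene.

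Each program gene was also left out of the rule in turn and its share read in the cells that the other 7 chose. The 8 genes were picked in these same cells and depth was not matched, so these shares are a description. *Col25a1* was found in 48.7% of 76 such cells (37.0% to 60.4%) and in 12.7% of the other *Nos1* cells (10.7% to 14.98%). *Cadps2* was found in 59.1% of 66 cells against 22.9%, and *Lrrtm4* in 50.6% of 77 cells against 19.6%. *Greb1l* stood at 35.9% against 8.004%, *Dpp10* at 27.8% against 8.51%, *Thsd7b* at 51.4% against 26.0%, *Vwa5b1* at 32.9% against 17.6% and *Rgs6* at 20.2% against 9.89%. In mouse 1, where 3 to 8 cells were chosen, *Greb1l* was found in 0 of 5 such cells and in 8.53% of the others.

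The members did not form 1 group when the 16 genes were set aside. Clustering of all 2060 cells without them gave 12 clusters, numbered from 0 by size. Cluster 7, with 148 cells of mice 2 and 3 and none of mouse 1, held 40 members (43.0%), 25 of mouse 2 and 15 of mouse 3, and they made up 27.0% of its cells. It also held 28.5% of the cells with both programs and 4.12% of the *Npy*-program cells. Clusters 0 and 1 held 19 and 20 members, and 7 of the 8 members of mouse 1 lay in cluster 3, which held cells of mouse 1 only. The clustering had no correction for differences between libraries, so the place of the mouse 1 members apart from the rest does not bear on their type. In mice 2 and 3 as well, the members lay in several clusters. The label of 1 nitrergic type with this program is thus not borne out by the clusters, and the cells are called members by their rule.

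Cluster 7 was picked for holding the most members, so a high level of the 8 program genes there follows in part from that choice. The genes had no part in the clustering itself. The summed program level averaged 9.17 in its 91 cells of mouse 2 and 8.70 in its 57 cells of mouse 3. These means include its members and its cells with both programs. Its 56 cells with neither program averaged 4.72. In *Nos1* cells of the other clusters the sum averaged 1.62 in mouse 2 and 1.26 in mouse 3. *Cadps2* was found in 47.6% of the 103 other *Nos1* cells of cluster 7 and in 17.6% of those elsewhere. *Greb1l* was found in 21.4% and 4.83% of the same cells. These are descriptions of the same cells that were clustered, with no test.

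**Figure D3:**
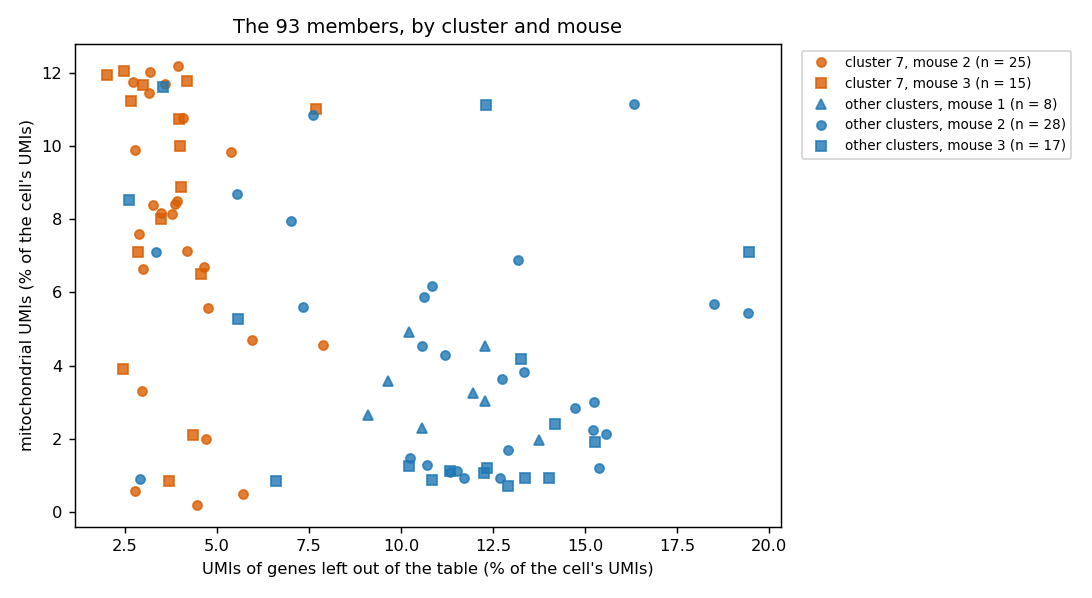
Each of the 93 members by the share of its UMIs from genes left out of the deposited table (horizontal axis, percent) and from mitochondrial genes (vertical axis, percent), with color for the cluster and shape for the mouse. Members of cluster 7 lie at the left, with medians of 3.86% and 3.71% in mice 2 and 3, and most other members lie at the right, with medians of 11.6% and 12.3%.

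The RNA of the members of cluster 7 was made up differently from that of the other members. Mitochondrial genes held a median of 8.14% of the UMIs in cluster 7 members of mouse 2 and 10.0% in those of mouse 3, against 3.72% and 1.24% in the members of other clusters. Genes left out of the deposited table, whose UMIs still count in the cell totals, held 3.86% and 3.71% of the UMIs against 11.6% and 12.3%. The table lists no ribosomal protein and no heat shock gene. Depth differed as well, with medians of 4989 and 6003 UMIs in cluster 7 against 11929 and 13540. *Malat1*, a nuclear RNA, averaged 866 and 1171 in cluster 7 members and 495 and 351 in the others. What part these shares have in the program was not tested.

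The medians of cluster 7 cells without the program lay on the same side. The 56 cells with neither program had a median mitochondrial share of 6.78% and a median share of genes left out of the table of 4.37%. Over all *Nos1* cells other than members, these medians were 2.53% and 12.01%.

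Thinning to equal depth took the program from most members. When every cell was thinned to 3000 UMIs, 27 of the 38 cluster 7 members that were deep enough (71.1%) were still members, against 4 of the 53 members of other clusters (7.55%). The latter were deeper to begin with and lost more UMIs, and the same genes chose the cells, so these shares are no test of where the program lies. Over all clusters, thinning left 4, 22 and 13 members in mice 1, 2 and 3. Of the 91 members deep enough, 31 kept their place.

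The same 2 sets differed in what they carried. Cluster 7 members had more *Nos1* than the other members, 26.5 against 8.01 in mouse 2 and 18.6 against 7.20 in mouse 3. *Etv1*, a transcription factor found in nitrergic enteric neurons, averaged 12.9 against 3.97 and 9.76 against 4.45. *Tac1*, the precursor of substance P, a transmitter of excitatory motor neurons, averaged 0.59 against 4.92 and 0.34 against 3.52. *Cartpt* averaged 7.32 against 24.3 and 8.47 against 19.1. The sum of 10 glial markers was 4.23 and 0.996 in cluster 7 members of mice 2 and 3, and 19.7 and 14.7 in the other members. At least 3 glial markers were found in 22.5% of the cluster 7 members and in 83.0% of the others, which were deeper. The part of glial RNA in the values of the other members was not tested.

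All 93 members had *Nos1* by the rule, at an average of 13.5, 16.7 and 12.5 in mice 1, 2 and 3. The other *Nos1* cells averaged 10.8, 9.77 and 7.76. From cell to cell it ran from 0.61 to 61.4, with a median of 11.9. Cells with both programs had the highest median count, 10, 21.5 and 18 UMIs in mice 1, 2 and 3, against 8, 11 and 8 in the members, at a median depth of 12313 UMIs against 8388.

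The peptides of the members varied widely between cells and mice. *Vip* averaged 9.24, 5.91 and 20.9 in mice 1, 2 and 3, against 4.67, 7.48 and 5.62 in the other *Nos1* cells, and in mouse 3 it ran from 0 to 268 over cells. *Gal* averaged 11.6, 66.2 and 64.8 in the members, and its median over cells was 10.3, 11.4 and 11.3. *Gal* and *Vip* were found together in 67 of the 93 members (72.0%), *Gal* alone in 21 and *Vip* alone in 5. *Gal* UMIs were also found in 95.2% of the other *Nos1* cells and 61.3% of the cells with no *Nos1*, and *Vip* UMIs in 72.2% and 33.6%, so a UMI of either does not set the members apart. Neither peptide passed the test against the *Npy*-program cells that follows, with log2 differences of 0.59 ± 1.01 (SE) for *Vip* (limma, adjusted p = 0.77) and -0.25 ± 0.15 for *Gal* (adjusted p = 0.23). For *Vip* the difference was -0.55 in mouse 2 and 1.73 in mouse 3.

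Cholinergic genes were mixed in the members. *Chat*, the enzyme that makes acetylcholine, averaged 0.34, 0.21 and 0.12 in the members and was found in 10.8% of them, against 9.57% of the other *Nos1* cells and 27.8% of the cells with no *Nos1*. *Slc5a7*, the choline transporter, was found in 71.0% of members, at 1.31, 1.89 and 3.13, against 46.5% of the other *Nos1* cells, at 1.52, 1.04 and 1.68. Its level in the members lay above that of the other *Nos1* cells in mice 2 and 3 and below it in mouse 1. *Etv1* averaged 9.68, 8.19 and 6.94 in the members, and *Bnc2*, a zinc finger factor, 0, 0.34 and 0.18.

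The members were first compared with all 972 other *Nos1* cells of the same mouse. In limma on class means per mouse, with the mouse as a block, no gene passed an adjusted p of 0.05 (0% called in either direction), of 7290 tested. At an unadjusted p under 0.05 there were 395 genes higher and 374 lower. The count depended on mouse 1, with 8 members. Without mouse 1, 579 genes (7.93%) were higher and 426 (5.84%) lower, while 5 and 13 were called without mouse 2 and 5 and 8 without mouse 3. With all 3 mice and a weight estimated for each class mean, 405 (5.56%) were higher and 341 (4.68%) lower, an alternative added after the data were seen.

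The members were next compared with the *Nos1* cells that had the *Npy* program only. The rule keeps these out, and it also keeps out the cells with both programs. The latter pass the limit on program genes, as the members do, and were not in this comparison. A class with under 10 cells in a mouse was to leave that mouse out, so this comparison rests on mice 2 and 3 and on 85 members against 259 cells. With so few class means, its SEs and p-values lean mostly on a spread that limma pools over genes. They do not measure a gene's own spread between mice. Of 7183 genes, 1084 (15.1%) were called higher in the members and 778 (10.8%) lower. No gene was called in limma with mouse 1 included at equal weight, where 546 higher and 438 lower had an unadjusted p under 0.05. With estimated weights 889 (12.4%) and 705 (9.82%) were called. The split between directions depended on scaling, with 856 higher and 1031 lower after median-ratio scaling and 854 and 927 when the listed genes alone made the total, while no named gene changed sign under these scalings. The genes of the rule were picked in these cells, so genes that go with them are no independent evidence of a cell type.

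The calls shrank when cells of like RNA make-up were compared. In cells with a mitochondrial share under 5%, 212 genes (3.05%) were higher and 113 (1.62%) lower. In cells whose share of genes left out of the table was 5% to 15%, 23 members of mouse 2 and 14 of mouse 3 remained, and 18 genes (0.26%) were higher and 7 (0.101%) lower. With the cells of cluster 7 left out, 28 and 17 members remained, and 131 (1.89%) were higher and 88 (1.27%) lower. These 3 alternatives were added after the data were seen. They also have fewer cells, and the part of cell number in the lower counts was not tested.

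**Figure D4:**
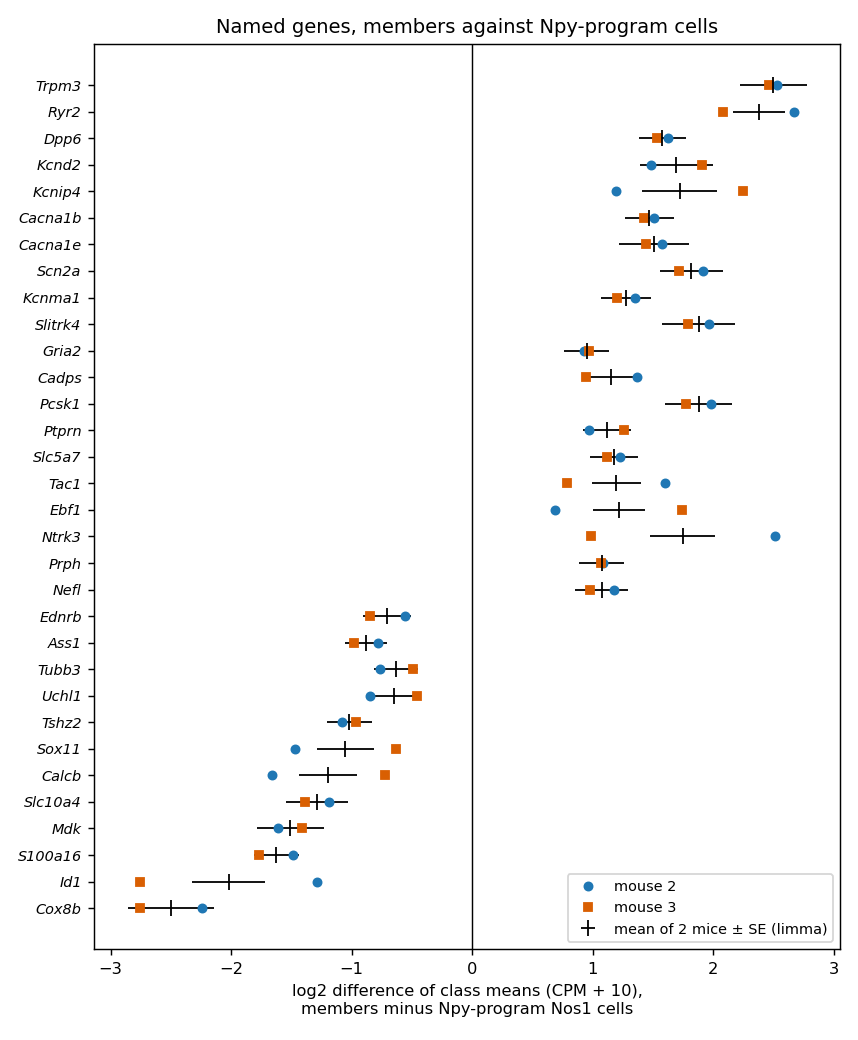
Log2 difference of class means (CPM + 10, horizontal axis) between members and *Npy*-program *Nos1* cells for 32 named genes, with circles for mouse 2, squares for mouse 3 and ticks with bars for the limma mean ± SE. The means run from 2.50 for *Trpm3* to -2.50 for *Cox8b*, and each of these 2 genes passed the filter on level through the class where it was high. The genes were picked for the plot from called genes, so their like sign in the 2 mice is no result.

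Genes of ion channels and synapses were called higher in the members in this comparison, and more transcription factors of enteric neurons were called lower than higher. Differences are on the log2(CPM + 10) scale and understate low genes, and the median over all genes tested was 0.084. Each list count is to be read against the 15.1% of all genes called higher and the 10.8% called lower. Of 8 genes of the A-type potassium channel complex, the channel that *Dpp10* serves, 4 were tested and all 4 were higher, with a median of 1.64. These are long genes, with a median span of 712 kb. Of all tested genes of 300 kb or more, 48.3% were called higher. *Dpp6*, the closest relative of *Dpp10*, averaged 3.60 and 4.14 in the members of mice 2 and 3 and 1.10 and 1.36 in the *Npy*-program cells. Its difference was 1.58 ± 0.19 (SE, limma, adjusted p = 1.6e-11). Cells with both programs averaged 4.10 and 5.74 for *Dpp6* in cluster 7 and 1.86 and 1.39 in other clusters, in mice 2 and 3. The pore subunits *Kcnd2* and *Kcnd3* differed by 1.69 and 1.08 and the partner *Kcnip4* by 1.72.

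Of 27 other ion channel genes tested, 20 were higher and none lower, against 15.1% and 10.8% of all genes, with a median of 0.94. Their median span was 159 kb, and 31.0% of all tested genes of 100 to 300 kb were called higher. *Scn2a*, a sodium channel, differed by 1.82, *Cacna1b* and *Cacna1e*, calcium channels of nerve terminals and cell bodies, by 1.47 and 1.51, and *Kcnma1*, the large calcium-gated potassium channel, by 1.28. Of 19 synaptic adhesion genes, 12 were higher and none lower, with a median of 0.74, among them *Slitrk4* at 1.88, *Clstn3* at 1.50 and *Tenm2* at 1.36. Of 11 nicotinic and glutamate receptor genes, 7 were higher and none lower, with AMPA receptor subunits *Gria2* at 0.95 and *Gria4* at 1.09. The adhesion and receptor genes tested had median spans of 364 and 278 kb, and 48.3% of all tested genes of 300 kb or more were called higher.

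Beside *Cadps2*, 30 dense-core vesicle and exocytosis genes were tested, of which 11 were higher and none lower, with a median of 0.34. The vesicle primer *Cadps* differed by 1.16, the prohormone convertases *Pcsk1* and *Pcsk2*, which cut peptide precursors, by 1.88 and 0.77, and the vesicle membrane protein *Ptprn* by 1.12. Of 11 genes of RGS proteins and their partners, the list of *Rgs6*, 3 were higher and none lower, and the median was 0.014. Of 3 membrane collagens and their receptors tested, the list chosen beside *Col25a1*, none was called.

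Lists of transmission and nitric oxide were mixed. *Slc5a7* was higher by 1.18 ± 0.20 (adjusted p = 1.4e-06), and *Slc10a4*, a transporter of cholinergic vesicles, lower at -1.29. Of 8 neuropeptides, *Tac1* was higher at 1.20 ± 0.20 and *Calcb* lower at -1.19. *Tac1* was found in 35.8% of members against 33.9% of *Npy*-program cells in mouse 2 and in 37.5% against 45.7% in mouse 3. With the rule set at 4 program genes its difference turned to -0.92. Of 10 genes of the nitric oxide and tetrahydrobiopterin list, *Gucy1b1* and *Asl* were higher, at 0.61 and 0.56, and *Ass1*, *Qdpr*, *Pts* and *Pcbd1* lower. *Ass1*, which with *Asl* recycles citrulline to arginine for nitric oxide synthesis, averaged 10.6 and 6.77 in the members and 18.3 and 13.5 in the *Npy*-program cells, a difference of -0.88 ± 0.18 (adjusted p = 3.6e-05). In mice 2 and 3 *Ass1* averaged 5.31 and 5.02 in cells with neither program and 20.2 and 16.3 in cells with both. A low *Ass1* level is thus not particular to the members.

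Of 27 transcription factors of enteric neurons, 1 was higher and 7 were lower, with a median of -0.11. The one higher was *Ebf1* at 1.22, a factor of neuronal differentiation. The lower genes included *Phox2a* at -0.89, a factor of the autonomic and enteric lineage, and *Tshz2* at -1.02. *Etv1* did not pass, at -0.010 ± 0.18 (adjusted p = 0.97). Of 21 genes of neuronal maturation, 4 were higher and 5 lower, counts not far from the 15.1% and 10.8% of all genes. The intermediate filaments *Prph* and *Nefl* were higher at 1.07 and 1.08, as was *Thy1* at 1.14. The immature-neuron genes *Sox11*, *Sox4* and *Gap43* were lower at -1.05, -0.64 and -0.61, and so were the pan-neuronal genes *Tubb3* at -0.63 and *Uchl1* at -0.65.

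Of 7 receptors for endothelin, GDNF and neurotrophins, *Ret*, the GDNF receptor kinase, was higher at 0.57 and *Ntrk3*, the receptor of neurotrophin-3, at 1.75. *Ednrb* was lower at -0.70 ± 0.20 (adjusted p = 0.0045), at 1.68 and 1.12 in the members of mice 2 and 3 and 2.52 and 2.09 in the *Npy*-program cells. Of 8 retinoic acid and BMP genes, 2 were lower, among them the BMP target *Id1* at -2.02. Of 8 glial markers tested only *Fabp7* was called, lower at -0.75, and of 9 smooth muscle markers only *Tagln*, lower at -0.80. The median of the glial markers was -0.25 in this fit. It was 0.12 with a mitochondrial share under 5%, 0.49 with a share of 5% to 15% from genes left out, and 0.42 without cluster 7. The medians over all genes in these 3 fits were 0.021, -0.0027 and 0.024, and no glial marker was called in them.

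In cells whose share of genes left out of the table was 5% to 15%, *Tac1* was the only gene of all these lists still called. With the cells of cluster 7 left out, *Tac1* differed by 1.93 ± 0.23 (adjusted p = 9.5e-14), *Cartpt* by 0.84 ± 0.23 (adjusted p = 0.014) and *Grp*, gastrin-releasing peptide, by 0.91 ± 0.24 (adjusted p = 0.0087). *Etv1* was then lower at -0.79 ± 0.22 (adjusted p = 0.017). The lists of A-type channels and other ion channels had 2 of 3 and 4 of 24 genes higher in that case, against 1.89% of all genes, with *Dpp6* at 1.04. *Kcnq3* was the 1 channel lower, against 1.27% of all genes. Outside cluster 7, *Tac1* averaged 4.92 and 3.52 in the members of mice 2 and 3. Cells with neither program averaged 2.31 and 3.49 there, and cells with both programs 3.51 and 2.199. The members were thus above both of these classes in mouse 2, but close to the cells with neither program in mouse 3.

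By the naming rule, the 12 largest called differences in each direction with the same sign in both mice were also read. *Snhg11*, a long noncoding RNA, led the higher genes at 2.77 ± 0.18 (limma, adjusted p = 2.4e-31, with the spread pooled over genes). It averaged 11.7 and 18.1 in the members of mice 2 and 3 and 1.78 and 2.35 in the *Npy*-program cells. Among those that followed were *Dnah11*, *Trpm3*, *Ryr2*, *Osbpl3*, *Fat3*, *Neat1*, *Csmd3*, *Lrfn5*, *Lrp1b* and *Camk2a*, from 2.58 down to 1.93. *Trpm3* is a cation channel, *Ryr2* a calcium release channel and *Camk2a* a calcium-dependent kinase. *Ryr2* averaged 2.81 and 2.36 in the members and 0.36 and 0.48 in the *Npy*-program cells, so the members were higher in each mouse. Cells with both programs in cluster 7 averaged 2.39 and 2.33 for *Ryr2* and 13.9 and 12.3 for *Snhg11* in mice 2 and 3. Those in other clusters averaged 0.84 and 0.54 for *Ryr2* and 3.11 and 2.61 for *Snhg11*. High levels of these genes are thus not particular to the members.

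*Cox8b*, a subunit of cytochrome oxidase, led the lower genes at -2.50 ± 0.35, with 0.042 and 0 in the members of mice 2 and 3 and 0.57 and 0.58 in the *Npy*-program cells. The filter asked for a mean of 0.2 over the class means, so *Cox8b* was tested only through the *Npy*-program cells. Its rank depends in part on that filter. The others were *Kcne1l*, *Id1*, *Chodl*, *Fst*, *S100a16*, *Lsp1*, *Tbpl1*, *Mdk*, *Fam181b*, *Ppp1r14b* and *Gng11*, from -2.33 to -1.31. *Fst* codes for follistatin, which binds activins, and *Mdk* for the growth factor midkine. *S100a16*, a calcium-binding protein, averaged 2.46 and 1.35 in the members and 7.05 and 4.84 in the *Npy*-program cells.

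The fit on all cells tested 7183 genes. Of these, 7 higher and 6 lower were called there and in each of the 3 alternatives on cell make-up. These alternatives are subsets of the same cells, so a call in all of them is no independent support. The higher ones were *Trpm3*, *Sorbs2*, *Oprk1*, *Lama4*, *Itga1*, *Abca8a* and *Lgi4*, and the lower ones *Cox8b*, *Kcne1l*, *S100a16*, *Tbpl1*, *Mtus2* and *Airn*. *Trpm3*, like *Cox8b*, passed the filter through the class where it was high. In *Npy*-program cells outside cluster 7 it averaged 0.115 and 0.113 in mice 2 and 3. The 8 and 4 such cells in cluster 7 averaged 1.54 and 0. *Oprk1*, the kappa opioid receptor, averaged 0.93 and 0.84 in the members and 0.20 and 0.23 in the *Npy*-program cells, a difference of 1.64 ± 0.28. The genes among these 13 that are outside the naming rule were picked after their values were seen. Some changed sign under other settings. *Lgi4* was at -0.29 after thinning to 3000 UMIs. *Abca8a* and *Itga1* were at -0.0040 and -0.079 with at least 2 program genes, which also brought mouse 1 into the fit.

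**Figure D5:**
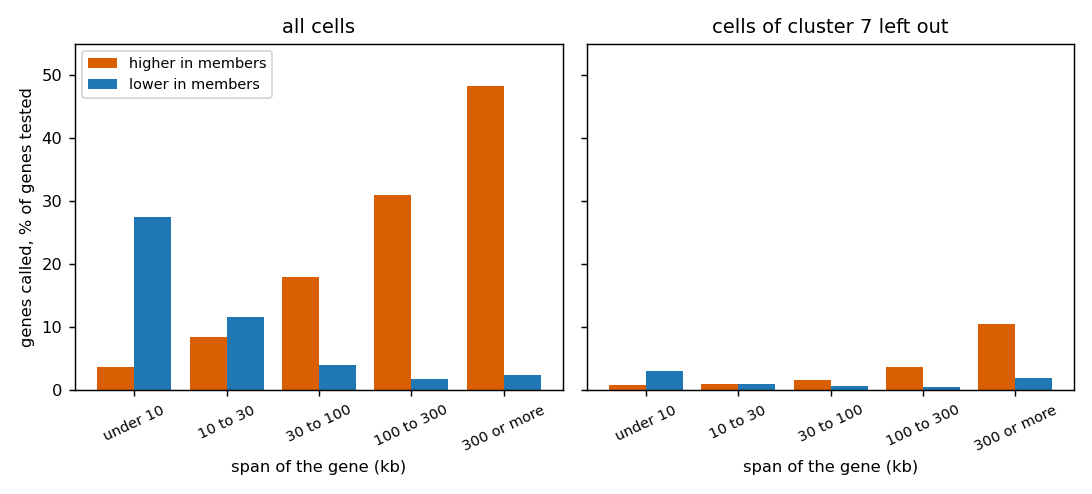
Percent of genes tested that were called higher (orange) or lower (blue) in members than in *Npy*-program cells (vertical axis, from 0), by the span of the gene on the genome in kb, over all cells (left) and with the cells of cluster 7 left out (right). Over all cells, calls higher rise from 3.64% under 10 kb to 48.3% at 300 kb or more. The rule chose members by longer genes than those that kept cells out, so this rise is no independent result.

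The calls went with the length of the gene. The 8 program genes span 70.5 to 946 kb of the genome, with a median of 575 kb (GENCODE M21 on GRCm38), and the 7 keep-out genes span 1.01 to 148 kb, with a median of 23.9 kb. The rule thus sets longer genes against shorter ones, so a trend of calls with span is no independent result. The part of the rule in this trend was not tested. Genes called higher in the members had a median span of 75.7 kb, genes called lower 9.19 kb and genes not called 28.4 kb. Under 10 kb, 3.64% of genes were higher and 27.5% lower. At 300 kb or more, 48.3% were higher and 2.45% lower.

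Length and RNA make-up moved together with the calls. *Malat1* and *Meg3*, noncoding RNAs of the nucleus, were higher at 1.04 and 1.44, and 12 of the 13 mitochondrial genes were higher, with a median of 1.08. With the cells of cluster 7 left out, 10.6% of genes of 300 kb or more were higher and 1.89% lower, and under 10 kb 0.801% were higher and 3.004% lower. The tested genes of the A-type channel, other ion channel and synaptic adhesion lists had median spans of 712 kb, 159 kb and 364 kb. The part of gene length and RNA make-up in the list counts was not tested.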

How the data were processed

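Neurons of 3 Ednrb-/- mice at postnatal day 14 were analysed, with 1 library per mouse. The authors sorted tdTomato-positive cells, made droplet (10x) libraries, aligned them with Cell Ranger to mm10 per the labels (version, annotation and intron counting not given in the sources used here), filtered cells on genes and mitochondrial share, removed genes they took as confounding and kept neurons. The deposited values are the natural log of 1 plus UMIs per 10000 UMIs of the cell, by the authors. Whole UMIs were recovered from them (100% of values whole within 1e-06). No column fell outside the samples used (0 columns). Cells held 2140 to 24945 UMIs. UMI totals were 1526256 in mouse 1, 10358118 in mouse 2 and 6412495 in mouse 3.

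Class means per mouse, over cells, were tested as log2(CPM + 10) with limma 3.58.1 (R 4.3.3; trend, robust, mouse as block, Benjamini-Hochberg over all genes, threshold 0.05) for genes with a mean of at least 20 CPM. A class mean needed at least 10 cells for the comparison with Npy-program cells. Both classes came from the same mouse and library, which is the source of the pairing. Those of the 16 genes of the rule that passed the filter were in the fit and in the adjustment of p-values. Their test results were dropped and they are in no count. Clusters came from Seurat 5.3.0 (2000 variable genes, 20 components, resolution 0.5, no correction for differences between libraries). Scrublet in scanpy 1.11.5 called 10 cells (0.485%) and none was removed, so doublets cannot be said to have been found reliably. In all, 4 cells shared a barcode between libraries and stayed in. Intervals are exact binomial (SciPy 1.17.1) and cover counting error only. Scripts were tested on simulated data.

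Named genes were those of the gene lists that the text uses, and the 12 largest called differences each way with 1 sign in the mice used, without genes of the rule or predicted genes. Some genes that this rule names are not reported here. The members and lists were chosen with earlier results of these data known. Alternatives varied the scaling, filter, pseudocount, rule, depth, block and samples. Array weights, all 3 mice in the second comparison, the limits on mitochondrial share and on the share of UMIs from genes left out, and leaving out cluster 7 were added after the data were seen.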

Additional observations from a re-analysis of the deposited data

How the results depend on the processing

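The comparison with all other Nos1 cells called no gene with limma in the planned fit, and 47 higher and 87 lower with at least 4 program genes, 39 and 182 after thinning to 3000 UMIs, 405 and 341 with array weights, and 0 and 8 without cells that had glial or smooth muscle markers, which left mice 1 and 3 with 3 members each. Leaving out 1 mouse gave 5 to 579 higher and 8 to 426 lower, with the highest counts without mouse 1. The comparison with Npy-program cells called 1084 higher and 778 lower. It called 620 higher with a filter at 50 CPM, 488 lower with no filter, 681 and 332 from summed UMIs, 323 and 467 after thinning, 0 and 0 with all 3 mice, 1 and 0 with at least 2 program genes, which also brought mouse 1 into the fit, 212 and 113 with a mitochondrial share under 5%, 18 and 7 with a share of 5% to 15% from genes left out of the table, and 131 and 88 without cluster 7. Without the replicate block, which pairs the classes of 1 mouse, it called 446 higher and 149 lower. The causes of these shifts were not tested. The share of members among Nos1 cells, as the mean of the mice, was 16.7% with at least 2 program genes, 4.26% with at least 4, 4.96% after thinning and 4.99% without cells with glial or smooth muscle markers, and 7.44% to 9.09% leaving out 1 mouse.

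Of 81 named genes, 76 were called, and 76 lost the call with all 3 mice at equal weight, 3 with array weights. The sign turned in the following log2 differences against Npy-program cells. With at least 2 program genes, and so mouse 1 as well, Nefl was at -0.10, Abca8a at -0.0040, Itga1 at -0.079 and Etv1 at 0.26, and with at least 4 Tac1 was at -0.92, Cartpt at -0.067, Grp at -0.058 and Etv1 at 0.16. After thinning Ntrk3 was at -0.47, Vip at -0.032, Cartpt at -0.26, Lgi4 at -0.29 and Etv1 at 0.23. With a mitochondrial share under 5% Ret was at -0.10, Pcbd1 at 0.13 and Gal at 0.32. With a share of 5% to 15% from genes left out, Ret was at -0.34, Asl at -0.30, Vip at -0.065, Gal at 0.12 and Fabp7 at 0.038. Without cluster 7, Ret was at -0.47, Asl at -0.26, Pcbd1 at 0.078, Vip at -0.046 and Gal at 0.10. Summed UMIs put Gal at 0.12, at least 2 Nos1 UMIs put Grp at -0.83, and all 3 mice put Etv1 at 0.031. Without mouse 3 and mouse 2 in turn, Vip was at -0.55 and 1.73, Etv1 at 0.061 and -0.082, and Grp at 1.04 and -0.76. Leaving out mouse 2 or 3 in this comparison leaves 1 mouse and no residual spread, so no count was made, and leaving out cells with glial or smooth muscle markers left too few members to be run.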
